A study of Mus musculus with 3 samples.

Results

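The genes described here encode the machinery that carries RNA polymerase II from a promoter into a gene body: 77 genes chosen by symbol from the 55536 annotated genes of the deposited gene tables. They are the 13 polymerase subunit genes Polr2a to Polr2m, 31 Mediator genes (the kinase gene Cdk8 among them), the TFIIH kinase gene Cdk7, 6 genes of the elongation kinase P-TEFb and its 7SK-bound inhibitors, 4 of the super elongation complex, 3 of the negative elongation factor NELF, 3 of the chromatin elongation factors DSIF, FACT and Spt6, 14 of Integrator and 2 of the coactivator SAGA. RNA was sequenced from the chromatin fraction of primary macrophages grown from bone marrow of C57BL/6J mice, after ribosomal RNA had been depleted. All cells had received lipid A, the part of bacterial lipopolysaccharide that TLR4 senses, at 100 ng/ml for 120 min. The 3 libraries, biological replicates 1, 2 and 3, form a single group, so no untreated level was analysed here and every comparison is among genes, isoforms or libraries. They carry the same donor label, no animal age is given, and nothing in the labels says that they came from separate cultures, so each SD and p measures how far these libraries differ and no more, and that spread may be technical.

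Polymerase II opens a gene with the help of Mediator, a large bridge between enhancer-bound activators and the polymerase, and of TFIIH, whose kinase marks the polymerase tail. Soon after the start the polymerase pauses under NELF and DSIF, until P-TEFb, the kinase Cdk9 with a T-type cyclin, releases it. P-TEFb is held inactive by Hexim proteins on the 7SK RNA and can be carried to genes by the super elongation complex, while Integrator cleaves nascent RNA and can end transcription early. In stimulated macrophages this release is a known control step of inflammatory genes.

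The libraries held 19919358, 20430415 and 22023921 expected counts, and a count of 0 would have allowed up to 3 counts in each library (counting error only). Starting RNA was 1 µg, 250 ng and 500 ng in replicates 1, 2 and 3 and cannot be told apart from replicate. All 8 macrophage markers had a mean of at least 1 TPM (a level corrected for length and scaled to the same total in each library), with summed levels of 441.8, 1410.0 and 346.4 TPM. T cell markers summed to at most 6.12 TPM. Of these 4 markers 1 had a mean of at least 1 TPM, and Cd3e and Trbc2 were at 0. B cell, neutrophil, NK cell, erythroid and stromal markers each summed to at most 0.81 TPM in a library. In all libraries 3 of 4 neutrophil markers and 2 of 3 NK cell markers were at 0, Ly6g and Gzma among them. Replicate 2 stood apart, with markers of cytoplasmic RNA at 612.3, 1986.0 and 630.4 TPM and mitochondrial RNA at 123.7, 2023.0 and 206.8 TPM.

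RNA of nearly all of these genes was detected in the chromatin fraction, with a median level below that of other transcribed genes. Of the 77 genes, 67 (87.0%) had at least 1 TPM in every library, against 37.4% of 22028 protein-coding genes, and all 77 had a count above 0 in each library. Their median level was 4.17, 6.45 and 7.25 TPM in replicates 1, 2 and 3 (5.96 ± 1.60, mean ± SD, n = 3). Protein-coding genes with a mean of at least 1 TPM had medians of 5.76, 8.34 and 8.1 TPM (7.40 ± 1.43 TPM), higher in each library. That set was chosen by its level and the members were not. The members ranged from 0.107 TPM for Med12l to 98.5 TPM for Med15, and together took 0.315%, 0.303% and 0.332% of all counts.

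**Figure D1:**
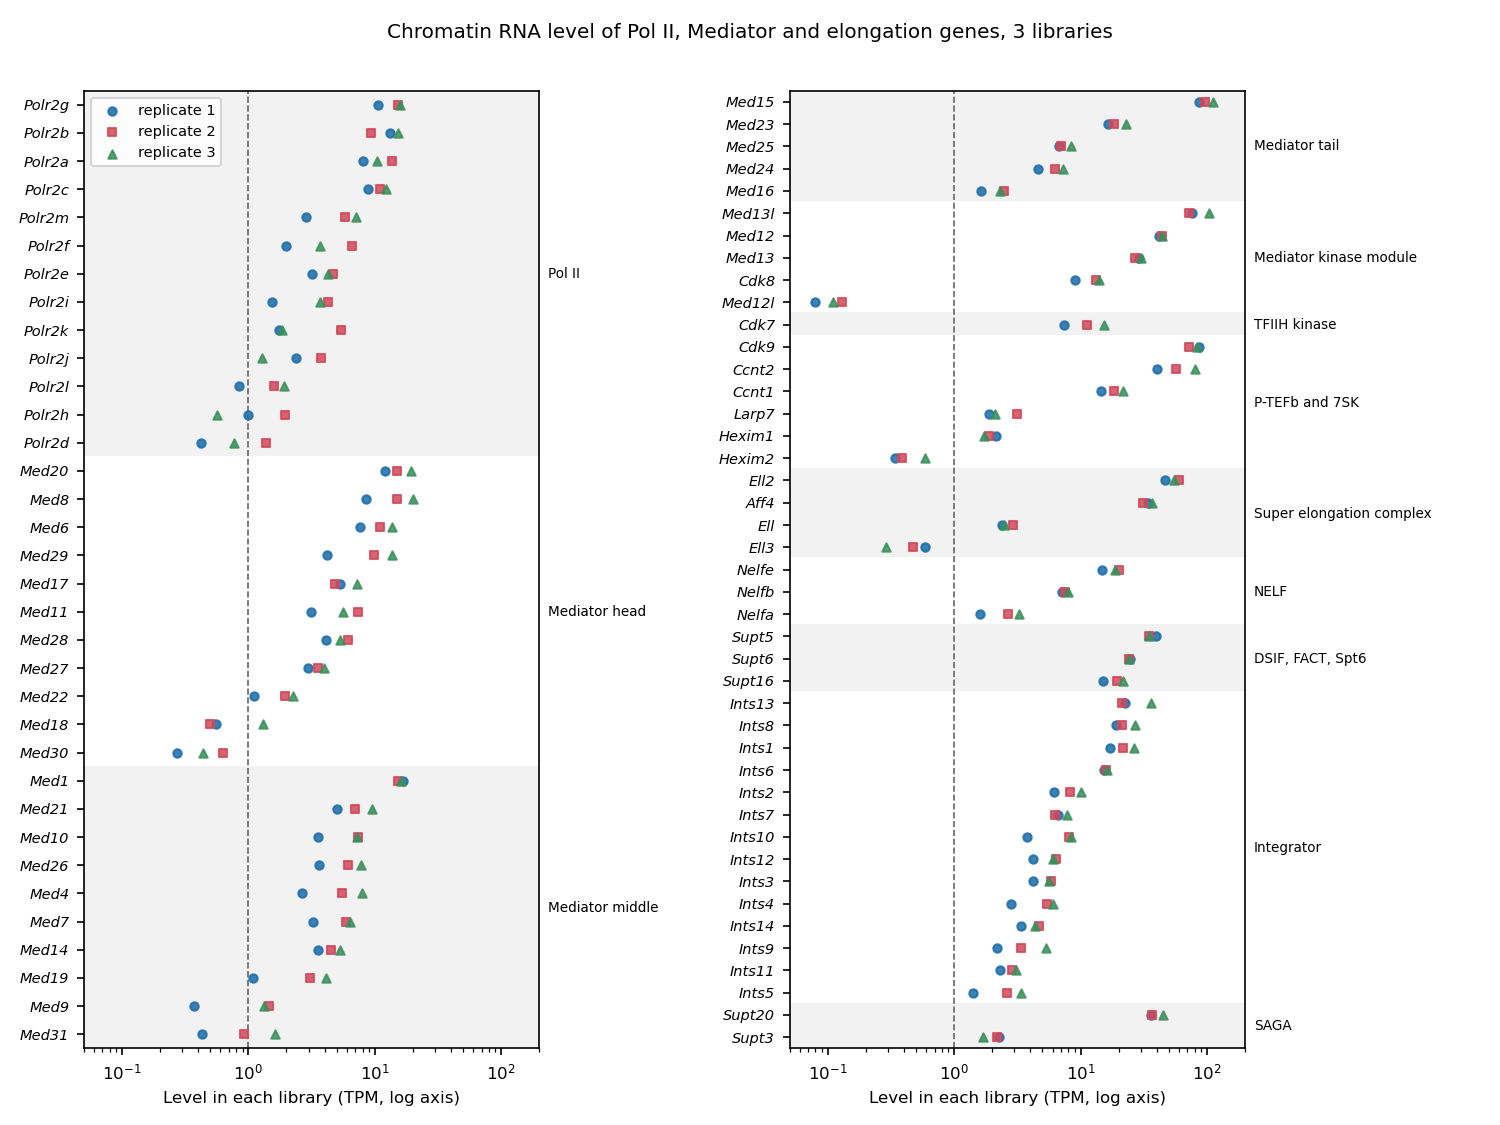
Level of each of the 77 genes in TPM on a log axis, with 1 symbol per library and genes grouped by complex; the dashed line marks 1 TPM. Med15, Med13l, Cdk9, Ccnt2 and Ell2 lie at the right and Med12l at the left, and the median is 4.05 TPM for the Pol II subunits against 24.28 TPM for DSIF, FACT and Spt6.

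Among the polymerase subunits no gene exceeded a mean of 13.8 TPM, and the median subunit had 4.05 TPM. Polr2g, a subunit of the stalk that binds emerging RNA, had 10.5, 15.2 and 15.8 TPM in replicates 1, 2 and 3. Polr2b, the second largest subunit, had 13.1, 9.40 and 15.1 TPM. Polr2a, the largest subunit (chr11:69733997-69758637, minus strand, mm10 as for all positions here), had 8.12, 13.6 and 10.45 TPM. Levels of these 3 genes overlapped across libraries, and the ratio of Polr2a to Polr2b changed direction between libraries, at 0.618, 1.45 and 0.691. The lowest subunit was Polr2d, which pairs with Polr2g in the stalk, at 0.42, 1.38 and 0.77 TPM, or 8, 22 and 13 counts. All of its libraries lay below all libraries of Polr2g. In the tables of the other quantifier Polr2g was 2.66 times as high, so the size of this gap depends on the quantifier.

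Mediator is built of a head and a middle that contact the polymerase, a tail that meets activators, and a detachable kinase module. The head and middle had median levels of 5.37 and 5.26 TPM over 11 and 10 genes. In the head Med20 (chr17:47611582-47624418, plus strand) had 12, 15.1 and 19.4 TPM and Med8 had 8.55, 14.9 and 20.1 TPM, with replicate 1 lowest for both and the ranges of the 2 genes overlapping. Med30 was the lowest head gene with 0.27, 0.63 and 0.44 TPM, at 5, 10 and 6 counts. In the middle Med1, the subunit that binds nuclear receptors, had 16.8, 15.4 and 16.02 TPM, nearly level across libraries, and Med21 had 4.99, 6.97 and 9.42 TPM. With the other quantifier Med1 was 2.12 times as high and less level, at 35.72, 24.77 and 41.65 TPM. Med31 was lowest at 0.43, 0.93 and 1.61 TPM. Of its 50-nt windows 24.2% lie in a transcript on the opposite strand, all in the coding isoform, while the retained-intron isoform Med31-202, at 75.8% of the gene, shares none.

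The tail held the highest gene of all 77. Med15, a tail subunit bound by activators (chr16:17651208-17732891, minus strand), had 86.6, 97.02 and 111.9 TPM, rank 422 of the protein-coding genes by mean. Med23 had 16.5, 18.5 and 22.9 TPM, and Med16, the lowest tail gene, had 1.62, 2.50 and 2.32 TPM. No library of another tail gene overlapped those of Med15. The other quantifier gave Med16 a level 3.38 times as high as here.

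The kinase module, which reversibly blocks Mediator from binding the polymerase, had a median of 28.7 TPM, and its paralogs differed widely. Med13l (chr5:118560679-118765438, plus strand) had 76.7, 72.4 and 103.3 TPM against 28.9, 27.2 and 30.2 TPM for Med13, both of which link the kinase to Mediator. Every library of Med13l was above every library of Med13, by ratios of 2.66, 2.66 and 3.43. Med12, the activator of the kinase, had 41.4, 43.8 and 43.8 TPM while its paralog Med12l had 0.08, 0.13 and 0.11 TPM on 16, 21.8 and 18 counts. The ratio of Med12 to Med12l was 517, 337 and 398, and 229 as a mean with the other quantifier. Cdk8, the kinase itself, had 9.12, 13.3 and 14.0 TPM, below every library of Med12, Med13 and Med13l.

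Cdk7, the kinase of TFIIH, had 7.46, 11.3 and 15.4 TPM. Replicate 1 was lowest and replicate 3 highest, and its libraries overlapped those of Cdk8.

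P-TEFb genes stood among the highest members and their inhibitors among the lowest. Cdk9 (chr2:32705784-32713076, minus strand) had 86.0, 72.2 and 83.01 TPM. Ccnt2, which encodes cyclin T2 (chr1:127774164-127808061, plus strand), had 40.4, 56.4 and 80.6 TPM, and Ccnt1, for cyclin T1, had 14.5, 18.5 and 21.6 TPM. Cyclin T2 was above cyclin T1 in each library, by ratios of 2.79, 3.06 and 3.74, and by a mean of only 1.63 with the other quantifier, where Ccnt1 was 1.88 times as high as here. Hexim1, the main inhibitor, had 2.16, 1.89 and 1.72 TPM and its paralog Hexim2 had 0.34, 0.39 and 0.59 TPM on 8, 11 and 12 counts. Larp7, which holds the 7SK RNA, had 1.87, 3.12 and 2.12 TPM. Cdk9 exceeded Hexim1 by ratios of 39.8, 38.2 and 48.3 on this length-corrected scale, and by a mean of 49.8 with the other quantifier, so this gap was far wider than its spread. The order of the Hexim paralogs did not hold: Hexim1 was above Hexim2 by a mean of 4.70 times here and stood at 0.846 times its level with the other quantifier (range 0.393 to 1.66).

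In the super elongation complex, which joins P-TEFb to elongation factors on a scaffold of the AFF family, 1 of 3 paralogous ELL genes dominated. Ell2 (chr13:75706757-75772364, plus strand) had 46.9, 59.98 and 54.4 TPM, Ell had 2.40, 2.90 and 2.46 TPM and Ell3 had 0.59, 0.47 and 0.29 TPM. Ell2 was 19.5, 20.7 and 22.1 times as high as Ell, and 13.0 times as a mean with the other quantifier, and the 3 genes did not overlap in any library. Ell3 shares 61.4% of its windows with the overlapping gene Serinc4 on the same strand, so its level of 9 to 21 counts is uncertain. The scaffold gene Aff4 had 34.1, 31.1 and 36.6 TPM, and 1.96 times that level with the other quantifier.

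**Figure D2:**
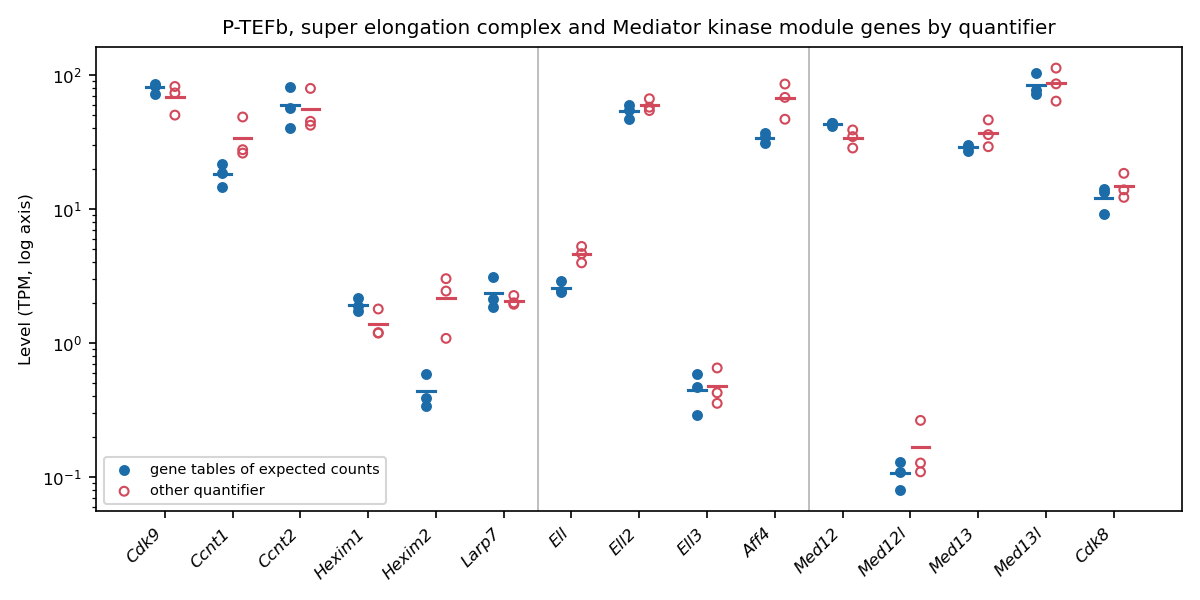
Levels in TPM on a log axis of P-TEFb, super elongation complex and Mediator kinase module genes, in the gene tables of expected counts (filled) and with the other quantifier (open); points are the 3 libraries and bars their means. Cdk9 lies above Hexim1, Ell2 above Ell and Med12 above Med12l with both, and the order of Hexim1 and Hexim2 turns over.

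The pausing factors were uneven. Nelfe, the RNA-binding subunit of NELF, had 14.7, 20.2 and 18.65 TPM, Nelfb 7.14, 7.49 and 8.02 TPM, and Nelfa 1.59, 2.66 and 3.24 TPM, with no overlap among the 3 genes. With the other quantifier Nelfe and Nelfb did overlap, at 15.98, 14.68 and 19.44 TPM against 11.08, 10.71 and 16.3 TPM. Supt5, the large subunit of DSIF, had 39.4, 34.99 and 34.9 TPM, and Supt6, the histone chaperone that travels with the polymerase (chr11:78206746-78245987, minus strand), had 24.5, 24.4 and 24.0 TPM. Supt16, a subunit of the histone chaperone FACT, was lowest of that group at 15.2, 19.6 and 21.5 TPM, and 19.3% of its windows lie in Rpgrip1 transcripts on the opposite strand. These 3 genes were each above the median of transcribed genes in every library.

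All 14 Integrator genes reached 1 TPM in every library, with a median of 6.17 TPM. Ints13, whose product lies in the module that docks partner factors, had 22.6, 21.4 and 36.3 TPM, and Ints8, which recruits a phosphatase, had 19.2, 21.4 and 26.9 TPM. Ints5 was lowest at 1.40, 2.63 and 3.35 TPM, with 21.7% of its windows shared with other gene models on the same strand, and Ints11, the RNA-cutting subunit, had 2.30, 2.88 and 3.09 TPM. Ints11 lay below Ints13 and Ints8 in every library, but those 2 genes were chosen for the highest means, so its lower mean followed from that choice. Of the SAGA genes, Supt20 had 36.1, 36.8 and 44.95 TPM and Supt3 had 2.25, 2.17 and 1.70 TPM, with no overlap.

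Longer members had higher levels in TPM. Over the 77 genes the rank correlation of mean TPM was 0.482 with the length of the reference coding transcript, 0.522 with its number of exons, 0.406 with the span of the gene and 0.565 with the number of annotated isoforms. These are descriptions across genes of the same libraries, and genes are not independent replicates. Mean TPM from the 2 quantifiers had a rank correlation of 0.955 across the members.

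Promoters of 64 members were found in the RefSeq table (GRCm38.p6), as 73 windows of 250 nt before the start. The GC box GGGCGG was present on either strand in 71.2% of them, in 58.4% of 9386 windows of protein-coding genes with a mean of at least 1 TPM and in 32.7% of all 32851 windows. The CCAAT box, spelled CCAAT, was in 42.5%, 34.5% and 33.8% of the same sets, and the TATA box TATAAA in 8.22%, 6.22% and 12.4%. The kB site, bound by NF-kB, was in 17.8% of the member windows, 22.2% of those of transcribed genes and 17.6% of all. The E-box CACGTG was in 6.85%, 8.54% and 6.02%, and the core of the interferon-stimulated response element in 1.37%, 3.03% and 2.98%. Each motif was searched on its own, with overlaps between motifs ignored, and a match is a run of letters only.

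A large part of the summed TPM of these genes was assigned to isoforms annotated with a retained intron. Averaged over libraries, protein-coding isoforms made up 48.8 ± 4.44% of the members' summed TPM and retained-intron isoforms 36.2 ± 4.48%. Other processed transcripts made up 9.99 ± 0.915% and isoforms annotated for nonsense-mediated decay 4.94 ± 0.635% (SD, n = 3). No such shares were computed over all genes. TPM is corrected for length, so a short isoform weighs more in it than in counts. In Med12 retained-intron isoforms made up 38.2% of TPM, but Med12-209 and Med12-208 had means of 117.8 and 466.9 of 4162 counts. In Med15 the retained-intron isoform Med15-209 exceeded the coding Med15-201 in counts too, at 1329 against 965. For each gene the 2 main classes were compared as log2 of summed retained-intron TPM + 0.1 minus log2 of summed protein-coding TPM + 0.1, so positive values mean more retained-intron RNA. Of the 77 genes, 49 could be tested, since 25 have no retained-intron isoform in the annotation and 3 fell under a mean of 50 counts. Retained-intron isoforms were higher in 12 of the 49 genes (24.5%, against 19.4% of 5602 genes tested) and lower in 11 (22.4%, against 29.8%), by limma with Benjamini-Hochberg adjustment over all genes at 0.05. The median ratio was -0.09 for the members and -0.23 for all genes tested. The other 26 members did not pass in either direction.

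**Figure D3:**
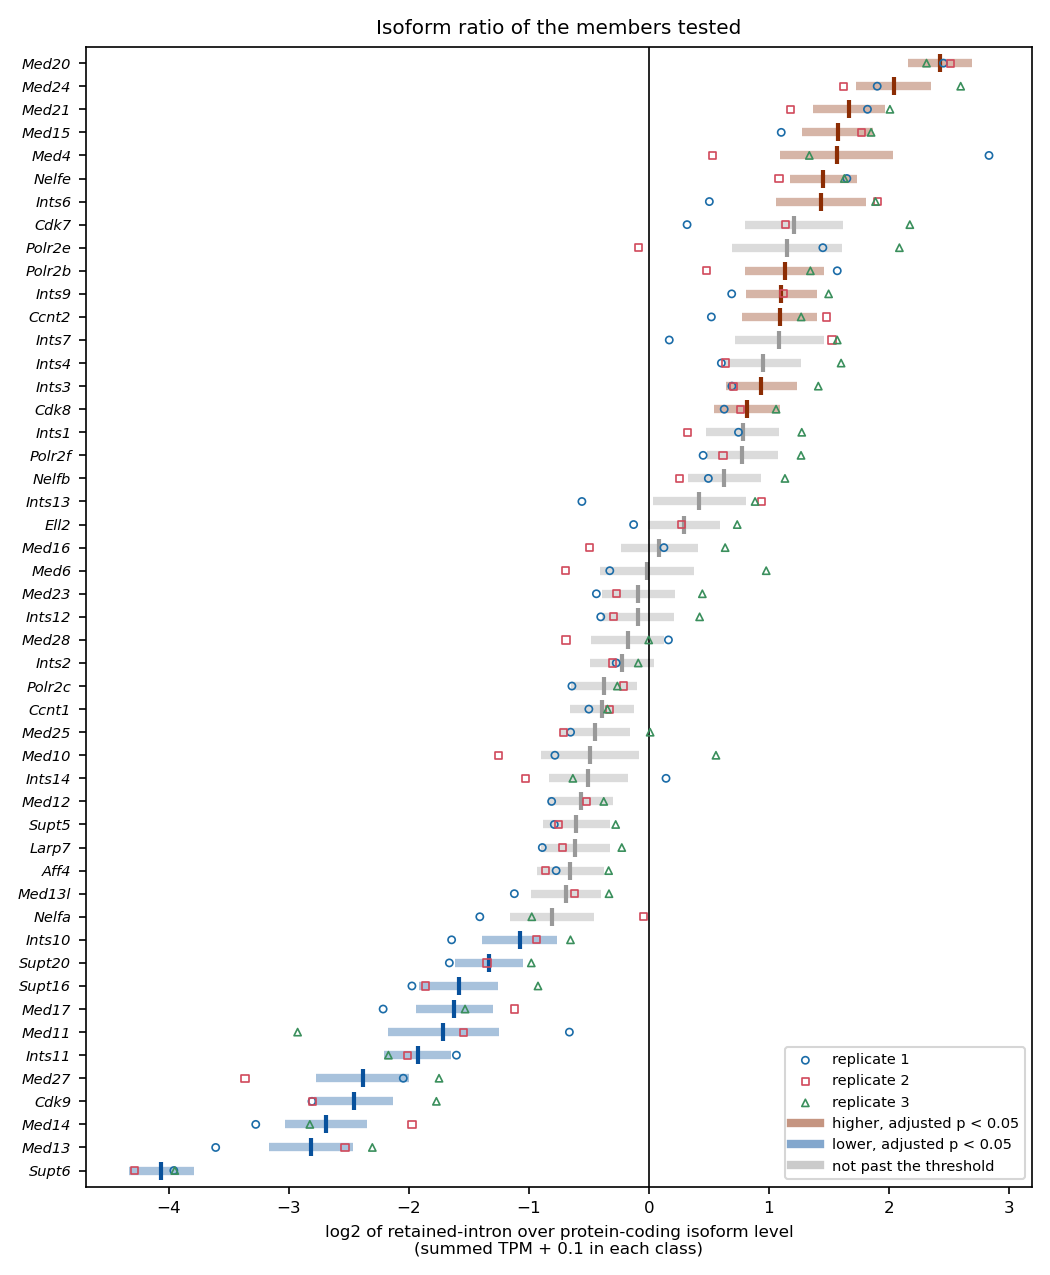
Log2 ratio of retained-intron to protein-coding isoform level for the 49 members tested, with open symbols for the 3 libraries, a tick for the mean and a band of 1 standard error; brown and blue mark genes past the threshold. Med20 is at the top with 2.43 and Supt6 at the bottom with -4.06.

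The annotation of the members' retained-intron isoforms holds 60 introns with coding sequence on both sides, in 31 genes, from 69 to 3822 nt long with a median of 225 nt, and all 60 begin with GT and end with AG. Such an isoform is not always measured, and Ell3-203 was at 0 TPM in all 3 libraries. Examples from 5 genes are shown because the isoforms that hold them belong to the classes compared in the results that follow, Med20, Med15, Med24 and Nelfe with more retained-intron RNA and Cdk9 with less. Sequences are from the GENCODE M21 transcripts on mm10, on the strand of the gene, with the first and last 2 bases of the intron in capitals. For Med20 and Med15 the ends are shown, each with 15 nt of exon and 25 nt of intron, and for the others the whole intron. In Med20-203 the intron is chr17:47619063-47622884 (plus strand, 3822 nt), in Med15-215 chr16:17683189-17685452 (minus, 2264 nt), in Med24-204 chr11:98717766-98717909 (minus, 144 nt), in Nelfe-205 chr17:34853500-34853612 (plus, 113 nt) and in Cdk9-207 chr2:32709616-32709772 (minus, 157 nt).
Med20 donor: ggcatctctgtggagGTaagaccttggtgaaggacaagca
Med20 acceptor: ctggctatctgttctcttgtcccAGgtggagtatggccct
Med15 donor: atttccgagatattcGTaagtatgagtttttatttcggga
Med15 acceptor: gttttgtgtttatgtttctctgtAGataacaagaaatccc
Med24 intron: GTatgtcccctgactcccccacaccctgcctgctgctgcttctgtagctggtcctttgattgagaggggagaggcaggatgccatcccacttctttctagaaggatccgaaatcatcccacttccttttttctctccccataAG
Nelfe intron: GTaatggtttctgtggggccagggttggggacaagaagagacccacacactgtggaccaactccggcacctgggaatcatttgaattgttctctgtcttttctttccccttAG
Cdk9 intron: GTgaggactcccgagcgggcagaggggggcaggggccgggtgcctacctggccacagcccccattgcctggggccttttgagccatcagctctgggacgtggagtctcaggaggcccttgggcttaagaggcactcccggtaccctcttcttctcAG

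The 5 largest ratios were those of Mediator genes. Med20 had 10.2, 12.9 and 16.2 TPM in retained-intron isoforms against 1.78, 2.17 and 3.18 TPM in its coding isoform, a log2 ratio of 2.43 ± 0.265 (SE, n = 3 libraries; limma adjusted p = 0.00167). The classes did not overlap, and 3 isoforms contributed: Med20-202 with a mean of 5.21 TPM, Med20-203 with 4.99 and Med20-204 with 2.91. Of the windows of Med20-203, 27.1% lie in Kpna2 or its pseudogene Kpna2-ps on the opposite strand, and none of those of the other 2 isoforms does. Med20-202 and the coding isoform share 50.6% and 23.2% of their windows with the overlapping gene model Gm20517 on the same strand, and the part of this sharing in the result was not tested.

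Med24, a tail subunit, had 3.72, 4.73 and 6.27 TPM in retained-intron isoforms and 0.92, 1.47 and 0.95 TPM in coding ones (log2 ratio 2.04 ± 0.312, limma adjusted p = 0.00399). Isoform Med24-204 alone, with the 144-nt intron above, made up 50.2% of the gene. Med21, a middle subunit, had 3.76, 4.88 and 7.60 TPM against 0.99, 2.10 and 1.81 TPM (1.67 ± 0.300, limma adjusted p = 0.00661). Rps26 or its pseudogene Rps26-ps1 on the opposite strand holds 11.4% of the windows of Med21-206 and 23.7% of those of Med21-202, the 2 leading retained-intron isoforms, and their part was not tested. For both genes the classes did not overlap in any library.

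Med15 combined the highest level with an excess of retained-intron RNA. Its retained-intron isoforms had 52.6, 70.2 and 78.3 TPM and its coding isoforms 24.4, 20.4 and 21.6 TPM (log2 ratio 1.58 ± 0.296, limma adjusted p = 0.00764). Of its 18 isoforms the retained-intron isoform Med15-209 was the highest at 20.95 TPM, followed by the coding Med15-201 at 13.7 TPM. No library of the coding class reached one of the retained-intron class, so most of the level of Med15 was in isoforms annotated with a retained intron.

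Med4, a middle subunit, had 2.40, 3.25 and 5.72 TPM against 0.25, 2.22 and 2.20 TPM, a log2 ratio of 1.57 ± 0.471 (limma adjusted p = 0.0359). Replicate 1, with the lowest coding level, carried much of this, and without replicate 1 the ratio was 0.94 and did not pass (adjusted p = 0.147; 0.0586 without replicate 3 and 0.0674 at a pseudocount of 0.01). Nelfe had 11.2, 13.7 and 14.2 TPM against 3.49, 6.41 and 4.50 TPM (1.46 ± 0.283, limma adjusted p = 0.00851), with adjusted p = 0.0586 without replicate 1. Its short isoform Nelfe-205, of 499 nt, had 6.60 TPM on a mean of 38.0 counts. The remaining 6 genes with more retained-intron RNA were Ints6, Polr2b, Ints9, Ccnt2, Ints3 and Cdk8, with ratios from 0.82 to 1.43, and these calls were weak. Ints9, Ccnt2, Ints3 and Cdk8 each did not pass when any 1 of the 3 libraries was left out, and Ints6 did not without replicate 2 (adjusted p = 0.0647) or replicate 3 (0.0648). With the other quantifier Ints6, Ints9 and Cdk8 did not pass (adjusted p = 0.0954, 0.126 and 0.597), and the ratio of Cdk8 was 0.15.

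Coding isoforms prevailed most in Supt6, followed by Med13, Med14 and Cdk9. Supt6 had 1.39, 1.10 and 1.37 TPM in its retained-intron isoform and 23.1, 23.3 and 22.6 TPM in its coding isoform, a log2 ratio of -4.06 ± 0.270 (limma adjusted p = 0.000633). The coding isoform Supt6-201 of 6488 nt thus made up 94.7% of the gene, nearly the same in all libraries. Cdk9 had 6.67, 5.60 and 10.6 TPM against 47.3, 39.7 and 36.4 TPM (-2.46 ± 0.330, limma adjusted p = 0.00279). Replicate 3 was highest in retained-intron RNA and lowest in coding RNA of Cdk9, and the classes stayed well apart.

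Med13 had 2.10, 3.94 and 5.01 TPM in retained-intron isoforms and 26.8, 23.3 and 25.1 TPM in its coding isoform of 10546 nt (log2 ratio -2.82 ± 0.351, limma adjusted p = 0.00243). With the other quantifier its ratio was -0.63 and did not pass (adjusted p = 0.092). Its paralog Med13l had 18.3, 22.8 and 35.25 TPM against 39.8, 35.2 and 44.4 TPM, a ratio of -0.69 that did not pass the threshold (adjusted p = 0.098). Whether the paralogs differ in this ratio was not tested.

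Med14, the scaffold that joins head, middle and tail, had 0.25, 0.86 and 0.58 TPM against 3.29, 3.67 and 4.72 TPM (-2.69 ± 0.343, limma adjusted p = 0.00249). Med27, a head subunit, had 0.52, 0.23 and 0.85 TPM against 2.46, 3.30 and 3.09 TPM (-2.39 ± 0.390, limma adjusted p = 0.00486). The retained-intron classes of Med14 and Med27 rest on few reads. Mean counts were 2.53 for Med14-205, 27.3 for Med14-204 and 2.67 for Med27-210. Ints11 had 0.42, 0.36 and 0.38 TPM against 1.48, 1.75 and 2.06 TPM (-1.93 ± 0.280, limma adjusted p = 0.00354). The other quantifier turned the direction for Ints11 to 0.69 (limma adjusted p = 0.0754). For Ints10 it turned the ratio from -1.08 to 0.67, past the threshold in the opposite direction (limma adjusted p = 0.0431). Ints11-203 holds the whole retained-intron class of Ints11 on a mean of 2.43 counts, and 35.3% of its windows lie in Pusl1 on the opposite strand. The other members with less retained-intron RNA were Med11, Med17, Supt16, Supt20 and Ints10, with ratios from -1.71 to -1.08. These calls depended on single libraries too. Without replicate 1, Med17, Supt16, Supt20 and Ints10 did not pass (limma adjusted p = 0.0586, 0.0691, 0.0768 and 0.163). Med11 did not pass without replicate 3 (0.0524), nor did Ints10 without replicate 2 (0.0783).

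By complex, the calls were spread out. In the Mediator head 1 of 6 tested genes had more retained-intron RNA and 3 had less, in the middle 2 and 1 of 4, in the tail 2 and 0 of 5, and in the kinase module 1 and 1 of 4. Of 12 Integrator genes 3 had more and 2 less, and of the 3 genes of DSIF, FACT and Spt6 none had more and 2 less. Among 4 tested polymerase subunits Polr2b alone passed, with more (1.13 ± 0.326, limma adjusted p = 0.0312; 0.158 without replicate 1 and 0.0764 without replicate 3). None of these counts was tested between complexes.

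The libraries differed in most of these genes beyond counting error. Rounded counts were compared with a chi-square test after scaling by trimmed-mean (TMM) factors from edgeR, with Benjamini-Hochberg adjustment over 14200 genes. Of 76 members tested, 55 varied (72.4%), against 68.8% of all genes, so the share is near the background. The median coefficient of variation was 18.4% for members and 23.2% for all genes, and 15% against 18.2% over those with a mean of at least 100 counts. Values below are TMM-scaled CPM (counts per library of a common size), which are not corrected for length, and on which the libraries order differently than in TPM. In replicate 1 protein-coding genes took 17.9% of all TPM, against 23.7% and 24.3% in replicates 2 and 3.

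Polymerase subunit genes that varied were all highest in replicate 2 on this scale. They were Polr2a, Polr2d, Polr2f, Polr2h, Polr2j, Polr2k and Polr2m, 7 of 13 genes, against 24.3% of all genes tested that varied and were highest in replicate 2. Polr2a had 57.4, 70.2 and 44.8 CPM (adjusted p = 4.97e-27 by this chi-square test with edgeR factors) and Polr2m, the Gdown1 subunit carried by a fraction of the polymerase, had 6.16, 11.7 and 6.05 CPM (adjusted p = 9.58e-12). Without replicate 2, 5 of these 7 calls were lost, with adjusted p = 0.918 for Polr2m, 0.128 for Polr2f, 0.741 for Polr2d, 0.121 for Polr2h and 0.254 for Polr2k. Polr2j did not pass without replicate 3 (adjusted p = 0.971), and Polr2a passed in every setting run. By the same chi-square test Polr2d did not pass with DESeq2 factors (adjusted p = 0.0737), without a count minimum (0.0721) or with the other quantifier (0.166). Polr2h did not pass with the other quantifier (adjusted p = 0.143). The median over all 13 genes of log2 replicate 2 over the mean of the others was 0.46, against 0.08 for the members and 0.04 for all genes. Under DESeq2 size factors 6 of the 7 were highest in replicate 2, with total counts 7, in TPM 6, and with TMM-scaled counts of the other quantifier 5; in TPM of the other quantifier only 2 were. All 8 markers of cytoplasmic RNA and all 4 mitochondrial genes were also highest in replicate 2, and their part in this result was not tested. Shorter members leaned to replicate 2 and longer ones to replicate 1, with rank correlations with transcript length of -0.442 and 0.45 over 77 genes.

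Of the 76 members, 20 (26.3%) varied and were highest in replicate 1, against 19.5% of all genes tested. Of the same 55 varying members, 21 were highest in replicate 1 under DESeq2 factors, 10 under total counts, 5 in TPM, 16 in TPM rescaled to protein-coding genes, 27 in TMM-scaled counts of the other quantifier and 6 in its TPM. With TMM factors they included all 3 genes of DSIF, FACT and Spt6 and 3 of 5 of the kinase module. Supt5 had 135.8, 95.5 and 78.7 CPM (chi-square with edgeR factors, adjusted p = 4.32e-73), Supt6 had 197.9, 154.5 and 134.2 CPM and Supt16 had 73.0, 71.9 and 59.3 CPM. Of these 3, Supt16 moved to replicate 2 under total-count scaling and to replicate 3 in TPM, and its variation did not pass without replicate 3 (adjusted p = 0.0684). Med13 had 366.0, 249.3 and 238.8 CPM and Med12 had 249.6, 195.5 and 169.6 CPM, and both were highest in replicate 1 under TMM, DESeq2 and total-count scaling but not in TPM. Without replicate 1 the variation of Med13 did not pass (adjusted p = 0.0543). Med13l had 539.0, 398.5 and 469.8 CPM and was highest in replicate 3 under total-count scaling and in TPM. Total-count scaling moved the median of all genes by -0.145 in replicate 1 and 0.123 in replicate 3 on the log2 scale relative to TMM.

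Cdk9 and its inhibitor Hexim1 were highest in replicate 1 under every scaling run, TPM of both quantifiers included, and so were Supt5 and Ell3. Cdk9 had 131.8, 83.8 and 80.4 CPM (adjusted p = 6.41e-71 by chi-square with edgeR factors) and Hexim1 had 9.35, 6.36 and 5.14 CPM (adjusted p = 2.72e-06). Without replicate 1 neither passed (adjusted p = 0.307 and 0.156). Ccnt2 went the other way, at 230.1, 222.7 and 297.5 CPM with replicate 3 highest, but replicate 1 was highest in TMM-scaled counts of the other quantifier. Ell2 was highest in replicate 2 at 160.8, 185.4 and 117.5 CPM, with replicate 1 highest instead in TPM rescaled to protein-coding genes and replicate 3 in TPM of the other quantifier.

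**Figure D4:**
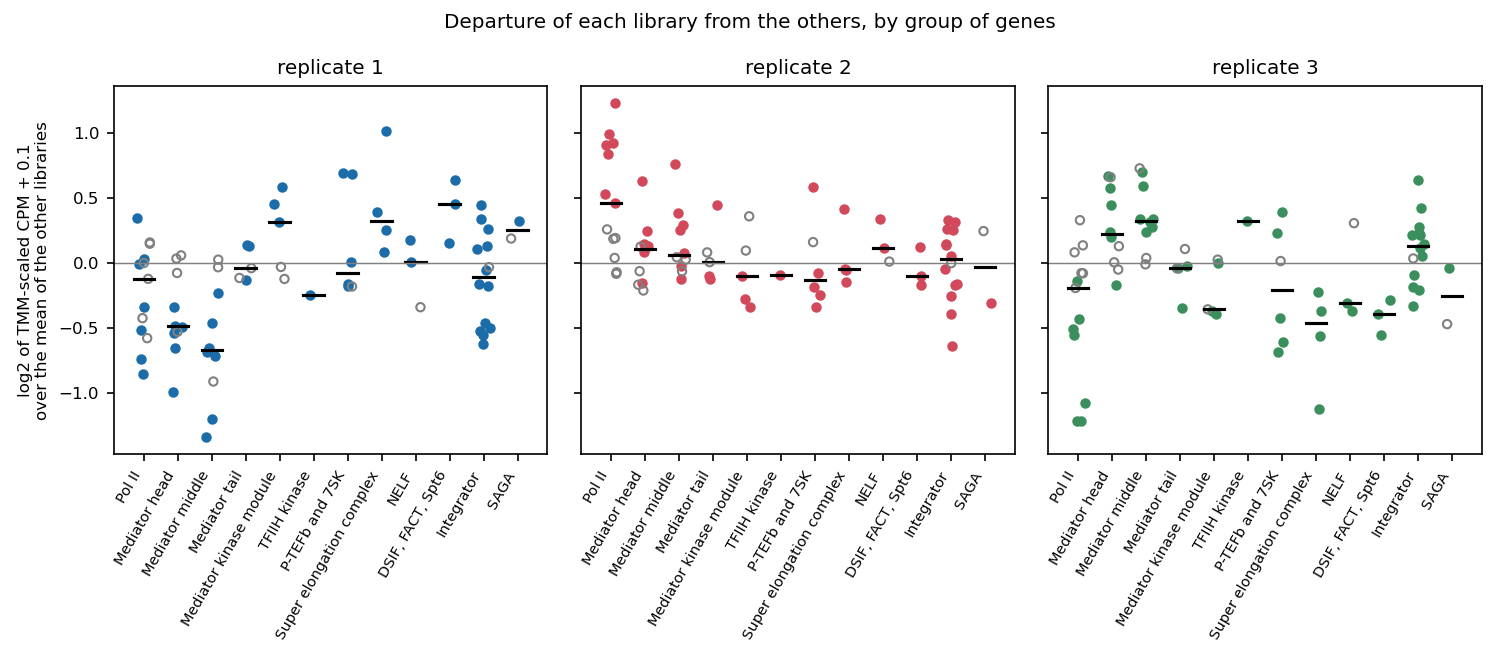
Departure of each library from the mean of the other libraries, as log2 of TMM-scaled CPM + 0.1, for the 76 members with a mean of at least 10 counts; filled points varied beyond counting error, open points did not pass, and bars are medians by complex. In replicate 2 the median Pol II subunit lies at 0.46, and in replicate 1 the kinase module and DSIF, FACT and Spt6 lie above 0.

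Of the 6 members with the largest coefficients of variation among those called, all but Med19 were low in counts. Polr2k, a small subunit shared by all 3 nuclear polymerases, had 13, 30 and 10 counts (62.3%, adjusted p = 0.00114 by chi-square with edgeR factors), Polr2h, likewise shared, had 13, 22 and 8 (52.4%), and Polr2d had 8, 22 and 13 (49.6%, adjusted p = 0.0485). Ell3 had 21, 14 and 9 counts (54.0%), Med9 had 15, 51 and 49 (48.0%) and Med19 had 47.6, 115.7 and 165.1 (42.5%). Replicate 2 was highest for the 3 polymerase subunits and replicate 1 lowest for Med9 and Med19. Beside the losses without replicate 2 given above, Med9, Med19 and Ell3 did not pass without replicate 1 (adjusted p = 0.415, 0.2 and 0.234). Without replicate 3 the calls of Polr2k, Polr2h and Ell3 were also lost (0.0928, 0.455 and 0.136), and Polr2d was lost without any library. Polr2k shares 21.6% and Polr2h 8.72% of windows with other gene models on the same strand. With TMM factors the lowest coefficients of variation were those of Ints11 at 1.58%, Med14 at 1.82% and Med1 at 2.56%, which were chosen after their values were seen. That order depended on the scaling. Med1 varied with DESeq2 factors (6.04%, adjusted p = 0.00956), total counts (10.1%, adjusted p = 3.87e-07), the other quantifier (13.1%, adjusted p = 1.62e-14) and without replicate 3 (7.55%, adjusted p = 0.0124), and Med14 varied with total counts (9.87%, adjusted p = 0.0242).

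Partners that the symbol rule leaves out were measured with a list of 51 names, of which 50 matched a gene. Of 48 protein-coding genes among them, 42 had at least 1 TPM in every library, and the median was 7.26 TPM. The 7SK RNA gene Rn7sk, the scaffold of the Hexim complex, had 9257, 31917 and 15409 TPM, the highest of the list and highest in replicate 2. Its mean was 18860 TPM here and 8719 TPM with the other quantifier. Among coding genes Aff1, a paralog of the scaffold Aff4, had 150.4, 140.8 and 219.4 TPM and Paf1, of the PAF elongation complex, had 52.5, 80.1 and 99.8 TPM. Aff1 was above Aff4 in every library, and Aff2 and Eaf2, the lowest matched genes, had 0, 0 and 0.04 TPM and 0.09, 0.02 and 0.03 TPM. With the other quantifier Aff2 and Eaf2 had means of 0.740 and 2.76 TPM, so their levels and their rank depended on the quantifier.

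Ccnc, the cyclin of the Mediator kinase, had 6.08, 8.73 and 12.8 TPM, overlapping Cdk8, and Cdk19, the paralog of Cdk8, had 1.22, 1.71 and 2.52 TPM, below Cdk8 in every library. Nelfcd, the remaining NELF gene, had 8.43, 12.3 and 12.9 TPM, and Supt4a, the small subunit of DSIF, had 2.85, 3.88 and 1.68 TPM, below Supt5 in every library. In this list 4 of 31 genes tested had more retained-intron than coding RNA and 11 had less, against 19.4% and 29.8% of all genes tested, and 35 of 46 varied between libraries, against 68.8%.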

How the data were processed

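Chromatin-associated RNA was measured in 3 libraries of 1 group, assigned from the replicate numbers in the labels. For each library the authors deposited gene and transcript tables of expected counts with TPM, and a further transcript table of estimated counts with TPM made directly from reads, called the other quantifier. Per the notes the authors deposited with the files, the tables use mm10 and GENCODE M21. The authors' deposited TPM corrects for transcript length within a library. The sources used here do not give the aligner, the quantifiers or the strand setting, so reads of genes that overlap on opposite strands cannot be told apart. Reads in an intron count for a gene only where an annotated isoform holds it. Fewer cells and less RNA per cell cannot be told apart in such bulk libraries.

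Symbols came from the GENCODE M21 reference, and entries matching no gene (0.845%, 0.282% and 0.179% of expected counts) were left out of sizes and tests. Isoform ratios were fitted with limma 3.58.1 on log2(TPM + 0.1), where the mean count reached 50. Variation between libraries was tested on expected counts rounded to whole numbers, where the mean reached 10, by a chi-square test with TMM factors from edgeR 4.0.16. Both used Benjamini-Hochberg adjustment at 0.05, and scripts were tested on simulated data. DESeq2 1.42.0 gave other size factors. The alternatives were other pseudocounts, count minimums, size factors, TPM thresholds, the other quantifier, TPM rescaled to protein-coding genes, and leaving out each library. Shared windows are runs of 50 nt found in transcripts of another gene.

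The members, lists and tests were chosen with earlier results of these data known. Named with values are the 2 highest and the lowest gene of each complex, the 6 largest isoform ratios in each direction and the 6 largest coefficients of variation among genes past the threshold, the paralogs of Med12, Med13, Ccnt1, Hexim1 and Ell, and, of the partner list, the 3 highest, the 2 lowest and genes that complete a complex. A gene of that list is not reported here. Other genes with values were chosen after their values were seen.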

Additional observations from a re-analysis of the deposited data

How the results depend on the processing

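With the other quantifier 19 of 49 genes rather than 12 had more retained-intron RNA, against 33.6% rather than 19.4% of all genes tested. Under that quantifier the ratios of Ints10 and Ints11 reversed to 0.668 and 0.691 (limma adjusted p = 0.0431 and 0.0754), and the median level was 8.14 TPM. Rescaling TPM to protein-coding genes gave a median of 26.75 TPM, and a threshold of 5 TPM kept 33 genes in every library. Leaving out each replicate in turn gave 5 to 8 genes with more retained-intron RNA, against 11.5% to 16.9% of all genes tested. It gave 7 to 11 genes with less, against 16.8% to 32.7%, and 32 to 41 that varied, against 47.5% to 54.7%. It gave 67 to 69 genes at 1 TPM and medians of 5.31 to 6.85 TPM. Other pseudocounts and count minimums gave 9 to 15 genes with more and 8 to 13 with less, of 36 to 52 tested. The shares over all genes tested were 17.3% to 21.8% and 26.6% to 33.3%. Of the 23 isoform calls, 8 held in every setting run (Cdk9, Med14, Med15, Med20, Med21, Med24, Med27 and Supt6), and of the 55 calls of variation, 10 did. The cause of these changes was not tested. No paired analysis was possible because the libraries form a single group. Genes with few counts, such as Med30 at 5 to 10, limit what the depth can show.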

Other observations

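Isoforms annotated for nonsense-mediated decay, the pathway that removes RNAs with an early stop, made up 4.94% of the members' summed TPM and the genes with the largest shares are given here, chosen after their values were seen. In Cdk9 they made up 39.4% of the gene, and Cdk9-208 was its highest isoform at 31.4, 24.9 and 34.1 TPM in replicates 1, 2 and 3, above the coding isoform Cdk9-201 at 27.4, 19.9 and 20.8 TPM. In TPM it was above Cdk9-201 in each library, although the ranges overlap. In mean counts Cdk9-208 was lower, at 408.4 against 760.1 for Cdk9-201. In Ints7 such isoforms made up 34.0%, in Med12l 21.9%, in Med25 21.4%, in Polr2c 18.8% and in Supt5 15.8%. The share of Med12l rests on Med12l-205 alone, with a mean of 2.00 counts and 0 TPM in replicate 1. In Med13l a short transcript of 444 nt with no coding annotation, Med13l-204, had 18.6, 14.4 and 23.6 TPM beside 24.3, 22.2 and 29.5 TPM for the full-length coding isoform Med13l-201. Their mean counts, which are not corrected for length, were 88.5 and 5099.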
